A study of Mus musculus with 3 samples.

Results

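The genes described here are 10 members of fibroblast growth factor (FGF) signalling, followed from ligand to nucleus: the ligand Fgf4, the receptors Fgfr1 and Fgfr2, the feedback inhibitors Dusp6, Spry2 and Spry4, the ETS transcription factors Etv4 and Etv5, and the immediate early genes Egr1 and Fos. They were chosen by symbol, and all 10 were found among the 55536 genes of the gene tables. RNA-seq of total RNA had been performed on 3 libraries of F121-9, a mouse embryonic stem (ES) cell line, hybrid between the Cast and 129 strains, taken at passage 14 with 400 ng of RNA for each library. The libraries carry the labels of biological replicates 1, 2 and 3 and form a single group of cells of a single line, with no treatment named, so that no comparison between conditions exists and the spread between libraries may be technical. The medium, and with it any inhibitor of the pathway, is not given in the labels. Each library came with a gene and a transcript table in the column format of RSEM, made from alignments to the transcriptome, and a transcript table in the format of kallisto, made from the read files without an alignment. The tables are called RSEM-style and kallisto-style, since the names of the programs were not given in the sources used here. Levels are in TPM, an abundance scaled to transcript length and to the library, on which genes can be compared, and come from the RSEM-style gene tables unless stated.

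FGF ligands are secreted proteins that bind receptor tyrosine kinases together with heparan sulfate. The receptor then recruits adaptor proteins that switch on RAS, and a chain of kinases, RAF, MEK and ERK, carries the signal to the nucleus. ERK phosphorylates ETS factors and leads to rapid transcription of immediate early genes such as Fos and Egr1, of the ETS factors Etv4 and Etv5, and of inhibitors that damp the pathway, the sprouty proteins and the ERK phosphatase DUSP6. In mouse ES cells FGF4 is made by the cells themselves and acts on them mainly through FGFR1. ERK activity moves these cells away from naive self-renewal, and culture media that hold them in the naive state often contain an inhibitor of MEK.

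Short stretches of sequence define several of the features measured below. Transcription of Fgf4 in ES cells is known to depend on an enhancer that lies in the untranslated part of the gene's last exon, where SOX2 and OCT4 bind side by side. In the reference annotation its paired motif, CTTTGTT and ATGCTAAT with 3 bases between them, lies at chr7:144864394-144864411 on the plus strand of GRCm38 (mm10), in exon 3, 1456 bases after the end of the coding sequence. A search of the longest coding transcript of 21901 genes on both strands found this pair of motifs in 1 gene, Fgf4. The match is a description of letters, and binding was not measured in these libraries. The site is shown with its flanks, the motifs in capitals.

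Fgf4 exon 3 element: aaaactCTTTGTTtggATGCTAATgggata

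FGF receptors come in forms that bind different ligands, because the second part of the third immunoglobulin-like domain is coded by alternative exons, IIIb or IIIc. FGF4 acts mainly through IIIc forms.

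The annotation also gives Fgfr1 an exon with alternative donor sites, of 84 or 90 bases, where the longer donor adds 6 bases at chr8:25557815-25557820. Etv5 has an optional exon of 54 bases at chr16:22421819-22421872 on the minus strand. Both keep the reading frame, and both separate the main transcripts of their genes. Capitals mark the added bases and the optional exon.

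Fgfr1 donor extension: ccaaaccaaaccGTAGGCctgtagctccct
Etv5 alternative exon: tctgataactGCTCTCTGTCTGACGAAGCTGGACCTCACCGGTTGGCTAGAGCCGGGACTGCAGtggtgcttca

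The ES cell label was checked against marker genes. All 6 ES cell markers were expressed, from Esrrb at 106 ± 13.6 TPM to Nanog at 505 ± 10.9 TPM, with Pou5f1 and Sox2, the genes of OCT4 and SOX2, at 495 ± 100.4 and 279 ± 29.8 TPM (SD, n = 3, as in all means that follow). Their summed level ranged over 1844 to 2128 TPM. Of 7 fibroblast markers, included because ES cells can be grown on feeder cells, 0 were expressed in the RSEM-style tables, and Col3a1, Dcn, Lum and Postn had 0 counts. The other 3 were Thy1, at 1.40, 1.34 and 0.43 TPM in replicates 1, 2 and 3, Col1a1 at 0.61 ± 0.0964 TPM and Col1a2 at 0.267 ± 0.0513 TPM. The summed level of the list was 1.39 to 2.36 TPM, and Thy1 reached 1 TPM in every library of the kallisto-style tables, at 1.66 ± 0.336 TPM. The primitive endoderm list had 3 of 6 members expressed and a summed level of 5.49 to 6.58 TPM, the primed epiblast list 2 of 4 and 5.83 to 7.53 TPM, and the trophoblast list 2 of 6 and 3.45 to 4.55 TPM.

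Depth was similar in the 3 libraries, at 9765384 to 10610782 estimated counts with spike-ins included, but replicate 1 stood apart. A chi-square test against counting noise called 1656 of 13391 genes at an adjusted p under 0.05, and 27 genes without replicate 1. Among 7582 genes of at least 20 CPM (counts relative to library size), the ratio of replicate 1 to the mean of replicates 2 and 3 went with transcript length (Spearman rho = 0.43 across genes, which share the libraries and are not independent). The 1896 shortest of these genes had a median log2 ratio of -0.08 and the 1896 longest of 0.09. Genes called beyond counting noise are therefore given with and without replicate 1.

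A gene was called expressed where its TPM reached 1 in all 3 libraries. By this rule 7 of the 10 genes were expressed, against 23.6% of all genes and 52.1% of 22028 protein-coding genes. Spry4, Egr1 and Fos were not. The levels covered a wide range, from Etv5 and Fgf4 near 90 TPM or more to Egr1 near 0.2 TPM. The order by mean was Etv5, Fgf4, Fgfr1, Spry2, Fgfr2, Etv4, Dusp6, Fos, Spry4 and Egr1. Neighbours in this order whose library ranges overlapped were Etv5 and Fgf4, Fgfr2 and Etv4, Etv4 and Dusp6, and Spry4 and Egr1. The ranges of Fgfr2 and Dusp6, which are not neighbours, also overlapped. In the kallisto-style tables Fgfr2, at 1.40 ± 0.258 TPM, came below Etv4, at 2.13 ± 0.829 TPM, and Dusp6, at 1.55 ± 0.135 TPM.

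**Figure D1:**
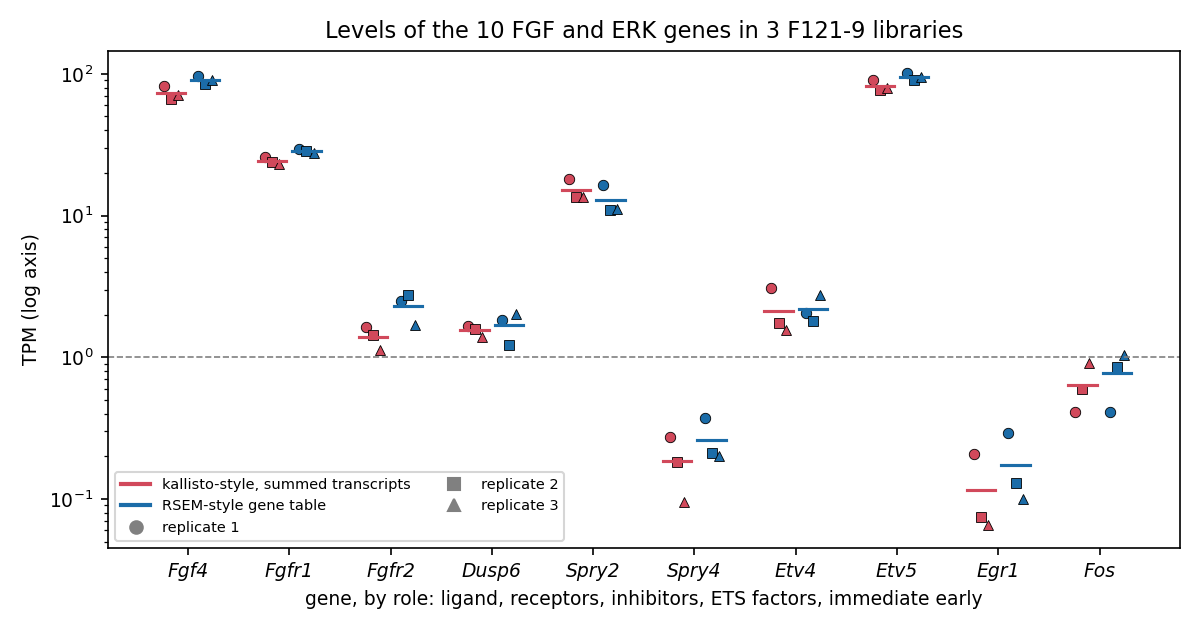
TPM on a log axis of the 10 genes in each library (points, 1 symbol for each replicate) with the mean of the 3 libraries (bars), in the kallisto-style tables summed over transcripts (red) and the RSEM-style gene tables (blue); the dashed line marks 1 TPM. Etv5 and Fgf4 stand highest, Fgfr1 and Spry2 follow between 10.9 and 29.3 TPM in the RSEM-style tables, and Spry4 and Egr1 stay below 0.4 TPM in every library.

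Fgf4 (ENSMUSG00000050917.5, chromosome 7, 144847367 to 144865243, plus strand) was the highest of the FGF ligand genes examined. It stood at 96.8, 84.96 and 90.49 TPM in replicates 1, 2 and 3, from 2093, 1752 and 1932 estimated counts. The mean was 90.75 ± 5.92 TPM, and 15.3% of the 11478 expressed protein-coding genes lay above it. The libraries differed little, with a coefficient of variation of 6.53%. The transcript Fgf4-201, which carries the exon 3 element, held 98.7 ± 0.722% of the gene in the kallisto-style tables and all of it in the RSEM-style tables. In bulk RNA, fewer cells that make a transcript and less of it per cell cannot be told apart.

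Of the other 17 FGF ligand genes examined, 3 were expressed: Fgf17 at 7.45 ± 0.637 TPM, Fgf3 at 6.71 ± 0.659 TPM and Fgf10 at 1.45 ± 0.127 TPM. Fgf3 is the neighbour of Fgf4 in the mouse genome, and its level was a small part of that of Fgf4 in all 3 libraries. Fgf5, which marks the epiblast after implantation, stood at 0.06, 0.12 and 0.33 TPM. Fgf6 and Fgf7 had 0 counts. The median over the list, averaged over libraries as for all list medians, was 0.177 TPM, and no ligand of the list approached Fgf4.

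Fgfr1 (ENSMUSG00000031565.18, chromosome 8, 25513654 to 25575718, plus strand) was the main receptor. It had 29.34, 28.47 and 27.78 TPM in replicates 1, 2 and 3, from 886, 801 and 843 estimated counts, and a mean of 28.53 ± 0.782 TPM. Its coefficient of variation, 2.74%, was the smallest among the 10 genes. Fgfr2 (ENSMUSG00000030849.18, chromosome 7, 130162451 to 133123350, minus strand) had 2.50, 2.76 and 1.69 TPM, from 32, 47 and 45 rounded counts. Replicate 3 held about as many counts as replicate 2 at a lower TPM, and the effective length of the gene, which divides the counts, was 1670, 2328 and 3517 bases in replicates 1, 2 and 3. Fgfr1 exceeded Fgfr2 by 15.9, 16.4 and 20.5 times within replicates 1, 2 and 3 in the kallisto-style tables, and by 11.7, 10.3 and 16.4 times in the RSEM-style tables. The difference held in 3 of 3 libraries in both kinds of table (two-sided exact permutation of the signs over libraries, p = 0.25, which is the smallest value possible with 3 libraries). The gap was smaller by the posterior means that the RSEM-style tables also give. These were 31.65, 30.91 and 30.29 TPM for Fgfr1 and 5.68, 5.77 and 5.36 TPM for Fgfr2 in replicates 1, 2 and 3.

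Among the other receptor genes, Fgfr3 and Fgfr4 were lower still, at 1.80 ± 0.588 and 1.15 ± 0.0473 TPM. Fgfrl1, which codes for a receptor-like protein without a kinase domain, had 21.1 ± 1.67 TPM. Klb, the gene of beta-Klotho, a co-receptor for endocrine FGFs, had 12.01 ± 0.267 TPM, while its relative Kl was near 0, at 0.02 ± 0.0173 TPM. The receptor and co-receptor list had 2 of 5 members expressed in the kallisto-style tables, against 4 of 5 in the RSEM-style tables. The genes that differed were Fgfr3 and Fgfr4, at 1.43 ± 0.419 and 1.04 ± 0.133 TPM in the kallisto-style tables.

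Most of the Fgfr1 RNA was of the IIIc form. Transcripts that hold the IIIc exon without the IIIb exon made up 77.9%, 74.7% and 80.4% of Fgfr1 in replicates 1, 2 and 3 of the kallisto-style tables, and 84.4%, 83.6% and 90.5% in the RSEM-style tables. Both annotated transcripts with the IIIb exon alone stood at 0 TPM in every library in both kinds of table. The IIIb exon also occurs, together with IIIc, in Fgfr1-208, annotated as a target of nonsense-mediated decay, at 1.54, 2.91 and 0.43 TPM in the RSEM-style tables. The rest of Fgfr1 lay in transcripts that hold neither exon, most of them annotated fragments or retained introns. A 0 here is the output of an estimate over transcripts that share most of their bases, and reads across single junctions were not examined.

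Fgfr1-202, with the shorter donor, was the leading transcript. It held 50.4 ± 3.19% of the gene in the kallisto-style tables, and 53.2 ± 6.08%, or 13.59, 15.82 and 16.06 TPM, in the RSEM-style tables. Fgfr1-201, with the longer donor, came next at 19.6 ± 3.10% in the kallisto-style tables, and 30.7 ± 5.48%, or 10.80, 7.45 and 8.11 TPM, in the RSEM-style tables. All transcripts with the longer donor together held 31.9 ± 2.76% in the kallisto-style tables and 36.4 ± 5.66% in the RSEM-style tables. Transcripts with the shorter donor thus held the larger share. In replicate 1 of the RSEM-style tables the shares came closest, at 47.6% for the shorter and 42.1% for the longer donor. Fgfr1-201 and Fgfr1-202 also differ elsewhere, with lengths of 5025 and 4046 bases, so their shares need not rest on the donor. Reads across the donor junctions were not examined.

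Fgfr1 transcripts also differ in a 267-base exon at chr8:25555508-25555774 that codes for the first immunoglobulin-like domain. Its presence gives the alpha form of the receptor and its absence the beta form. Transcripts with exactly this exon, Fgfr1-201 and Fgfr1-202, held 69.98 ± 6.06% of Fgfr1 in the kallisto-style tables and 83.9 ± 2.71% in the RSEM-style tables. The shares were 74.6 ± 3.75% and 91.9 ± 2.10% with 2 further transcripts that share its end: Fgfr1-215 has a longer form of 306 bases and Fgfr1-208 only the last 158 bases. Transcripts that skip it held 7.69 ± 3.19% in the kallisto-style tables, all of it in Fgfr1-203, against 0 in each RSEM-style table. Transcripts with the exon predominated in both kinds of table, and the presence of the beta form depended on the quantification.

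**Figure D2:**
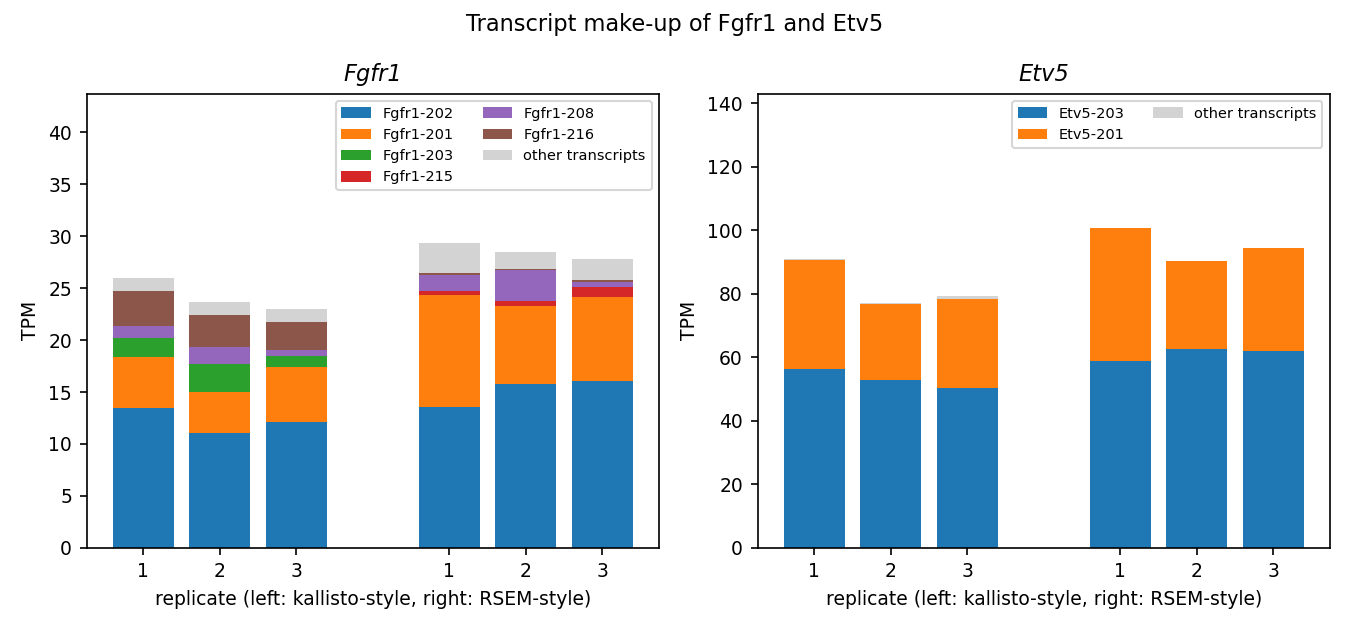
TPM of each transcript, stacked, of Fgfr1 (left) and Etv5 (right) in each of the 3 libraries, with the kallisto-style tables on the left and the RSEM-style tables on the right of each panel. Fgfr1-202 leads in every bar of Fgfr1, Fgfr1-203 appears on the kallisto-style side alone, and Etv5-203 exceeds Etv5-201 in every bar of Etv5.

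For Fgfr2, at 32 to 47 counts for each library over 27 annotated transcripts, the leading transcript changed from library to library, and no main form could be named. In the kallisto-style tables transcripts with the IIIc exon alone held 13.2%, 43.0% and 40.6% and those with the IIIb exon alone 36.2%, 20.5% and 27.5%. In the RSEM-style tables the IIIc share was 22.3%, 35.0% and 37.3% and the IIIb share 11.95%, 5.42% and 21.9%. Transcripts with neither exon held 50.6%, 36.6% and 31.9% in the kallisto-style tables and 65.7%, 59.6% and 40.8% in the RSEM-style tables. The order of the forms differed between libraries in the kallisto-style tables, so the balance was not resolved at this depth.

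Spry2 (ENSMUSG00000022114.5, chromosome 14, 105891947 to 105896819, minus strand) was the highest of the 3 feedback inhibitors. Sprouty proteins act downstream of receptor tyrosine kinases and limit ERK activation. Spry2 stood at 16.38, 10.92 and 11.04 TPM, from 236, 150 and 157 estimated counts. Replicate 1 lay well above replicates 2 and 3, which were nearly equal. Spry4, a relative (ENSMUSG00000024427.7, chromosome 18, 38586247 to 38601415, minus strand), stood at 0.37, 0.21 and 0.20 TPM from 13, 7 and 7 counts. The exact 95% Poisson intervals of those counts, which cover counting error only, ran from 6.92 to 22.2 in replicate 1 and from 2.81 to 14.4 in the other 2 libraries. They overlap, so the libraries were not distinguishable for Spry4 at this depth. Spry2 exceeded Spry4 by 65.8, 73.8 and 141.4 times within replicates 1, 2 and 3 in the kallisto-style tables, and by 44.3, 52.0 and 55.2 times in the RSEM-style tables.

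Dusp6 codes for a phosphatase that removes the activating phosphates from ERK in the cytoplasm (ENSMUSG00000019960.8, chromosome 10, 99263231 to 99267489, plus strand). It had 1.83, 1.22 and 2.03 TPM, from 36, 23 and 33 counts, and 96.7% of the expressed protein-coding genes lay above it. Exact Poisson intervals of its counts, 25.2 to 49.8, 14.6 to 34.5 and 22.7 to 46.3, overlapped in all 3 libraries. Spry2 was 10.9, 8.49 and 9.64 times as high as Dusp6 in replicates 1, 2 and 3 of the kallisto-style tables, and 8.95, 8.95 and 5.44 times as high in the RSEM-style tables.

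Of 15 other inhibitors listed, 12 were expressed, 4 had a mean above that of Spry2 and 12 a mean above that of Dusp6. Dusp9, a phosphatase gene related to Dusp6, led at 67.5 ± 3.65 TPM, followed by Dusp1, which codes for a nuclear phosphatase of the same class, at 51.1 ± 1.01 TPM and the RAS GTPase-activating protein gene Rasa1 at 26.7 ± 0.969 TPM. The fourth, the phosphatase gene Dusp7, had 13.15 ± 0.526 TPM, within the range of Spry2. Spry3 was lowest at 0.02 ± 0.0173 TPM. Dusp9 was above Dusp6 in each library, at 71.69, 65.10 and 65.66 TPM. Within the sprouty family the order was Spry2, Spry1 at 10.2 ± 1.03 TPM, Spry4 and Spry3, and the ranges of Spry2 and Spry1 overlapped.

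Etv5 (ENSMUSG00000013089.15, chromosome 16, 22381309 to 22439719, minus strand) was the highest of the 10 genes. It stood at 100.7, 90.18 and 94.40 TPM in replicates 1, 2 and 3, from 2814, 2389 and 2595 rounded counts, and 14.6% of the expressed protein-coding genes lay above it. It was higher than Fgf4 in 3 of 3 libraries, but by 1.04, 1.06 and 1.04 times only, and the ranges of the genes overlapped. Etv4, its close relative (ENSMUSG00000017724.14, chromosome 11, 101769742 to 101785371, minus strand), stood at 2.04, 1.81 and 2.74 TPM from 30, 29 and 28 counts. The counts of Etv4 were nearly the same in the 3 libraries, and its higher TPM in replicate 3 went with a shorter effective length of 1352 bases, against 1926 in replicate 1 and 2190 in replicate 2. Etv5 exceeded Etv4 by 29.5, 44.3 and 50.6 times in replicates 1, 2 and 3 of the kallisto-style tables, and by 49.4, 49.8 and 34.5 times in the RSEM-style tables. By the posterior means that the RSEM-style tables also give, the ratio was smaller, at 17.8, 16.1 and 15.2 times. The third member of this subfamily, Etv1, had 2.14 ± 0.187 TPM, a level like that of Etv4.

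Etv5 RNA fell into 2 coding transcripts. Etv5-203, which contains the 54-base exon shown above, held 58.5%, 69.3% and 65.5% of the gene in replicates 1, 2 and 3 of the RSEM-style tables, and Etv5-201, which lacks it, held 41.5%, 30.7% and 34.5%. In the kallisto-style tables the mean share of Etv5-203 was 64.7 ± 3.43%, against 64.4 ± 5.47% in the RSEM-style tables. The transcript with the exon thus held the larger share in every library and in both kinds of table. Etv5-203 and Etv5-201 also differ elsewhere, with lengths of 3773 and 3975 bases, so their shares need not rest on the exon. Reads across its junctions were not examined. For Etv4, with 28 to 30 counts for each library over 12 annotated transcripts, the leading transcript was Etv4-202 in replicates 1 and 3 and Etv4-201 in replicate 2, so no main form was named.

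Of 8 other ETS factors and repressors that work in the ERK pathway, 6 were expressed. The highest was Cic, the gene of the repressor capicua, which binds and silences Etv4 and Etv5 when ERK is inactive. It had 35.03, 18.78 and 20.49 TPM, with replicate 1 high. Ets2 stood at 16.0 ± 1.25 TPM and Elk1 at 10.8 ± 0.654 TPM, and Ets1 was lowest at 0.677 ± 0.498 TPM. The spread of Cic went beyond counting noise (chi-square adjusted p = 5.92e-10) but was not called by edgeR's quasi-likelihood test (adjusted p = 0.498). The chi-square test called 6 of the 69 listed pathway genes it could test, or 8.70%, against 12.4% of all genes. The 5 beside Cic were Mapk3, Cbl, Ndst1, Sos1 and Ptpn11, of which all but Ndst1 had their highest TPM in replicate 1 and Ndst1 its lowest in replicate 3. Without replicate 1 the chi-square test called 0 of 68 pathway genes, 4 at an unadjusted p under 0.05, against 0.20% of all genes called, and Cic had an adjusted p of 0.903. The 6 genes then had adjusted p of 0.145 to 0.93, against 5.92e-10 to 0.0276 with all 3 libraries. Without replicate 2 the chi-square calls of Mapk3, Ndst1 and Ptpn11 were lost (adjusted p of 0.0973, 0.0511 and 0.24), and without replicate 3 that of Ndst1 (adjusted p of 0.79).

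The immediate early genes Egr1 and Fos were low. Egr1, a zinc finger factor gene induced within minutes of ERK activation (ENSMUSG00000038418.7, chromosome 18, 34859823 to 34864984, plus strand), had 7, 4 and 3 counts in replicates 1, 2 and 3, or 0.29, 0.13 and 0.10 TPM. The 95% Poisson intervals were 2.81 to 14.4, 1.09 to 10.2 and 0.619 to 8.77 counts, so the apparent order of the libraries was not resolved. Fos, the gene of an AP-1 subunit (ENSMUSG00000021250.13, chromosome 12, 85473890 to 85477273, plus strand), had 6, 12 and 15 counts, or 0.41, 0.86 and 1.04 TPM. Here replicate 1 was the lowest, with intervals of 2.20 to 13.1, 6.20 to 20.96 and 8.40 to 24.7 counts that overlap. Fos lay above Egr1 in 3 of 3 libraries, by 1.41, 6.62 and 10.4 times on these few counts.

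Low Egr1 and Fos stood beside a list of other immediate early and AP-1 genes of very different levels. Of 12 listed, 5 were expressed. Ier2 had 224 ± 5.23 TPM, the AP-1 genes Jund and Junb 147 ± 3.78 and 32.7 ± 1.95 TPM, while Egr3 was lowest at 0.0133 ± 0.0231 TPM. The median of the list was 1.02 TPM.

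The steps between receptor and target genes were expressed at higher levels than most of the 10 genes. All 12 members of the RAS to ERK cascade were expressed, with a median of 65.0 TPM. The MEK gene Map2k2 stood at 87.6 ± 8.21 TPM, and the scaffold gene Ksr1 was lowest at 5.57 ± 1.53 TPM. All 8 receptor adaptors were expressed: Grb2 stood at 85.6 ± 3.72 TPM, Shc1 at 78.3 ± 5.18 TPM, Gab1 at 44.2 ± 1.19 TPM and Sos2 lowest at 8.72 ± 0.257 TPM. Of 14 genes that make or carry heparan sulfate, 13 were expressed, led by Ext2 at 65.5 ± 1.71 TPM, Hs6st1 at 50.9 ± 3.83 TPM and Gpc3 at 32.5 ± 2.27 TPM, with Gpc6 lowest at 0.717 ± 0.11 TPM. In all, 63 of the 91 listed pathway genes were expressed, against 52.1% of all protein-coding genes. The median of the 10 genes, which include the unexpressed Spry4, Egr1 and Fos, was 2.26 TPM. It lay above the median of all protein-coding genes, 1.85 TPM, and below that of the expressed ones, 19.7 TPM.

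**Figure D3:**
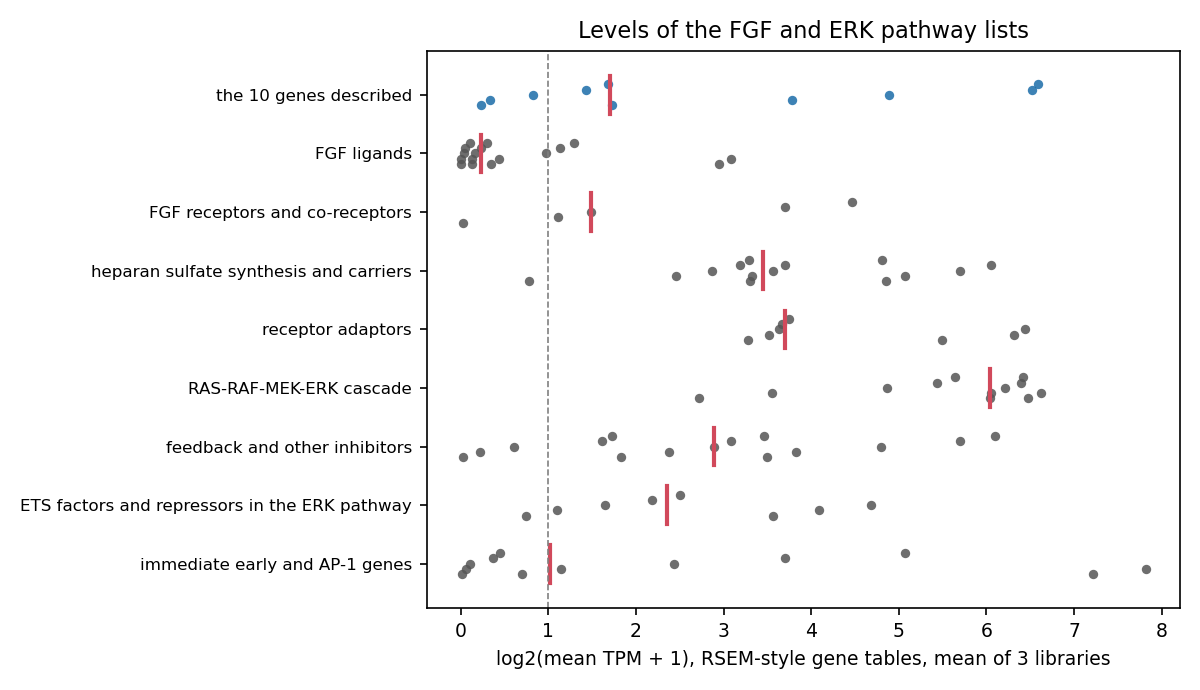
Level as log2 of mean TPM + 1 over the 3 libraries, for the 10 genes (blue) and for each list of other FGF and ERK pathway genes (grey), with 1 point for each gene, the list median as a red line and the dashed line at 1 TPM. The cascade list has the highest median, 65.0 TPM, and the FGF ligand list the lowest, 0.177 TPM.

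Variation between the libraries was tested over all genes with enough counts, a filter that 7 of the 10 genes passed and Spry4, Egr1 and Fos did not. With edgeR's quasi-likelihood test against the dispersion trend, 0 of the 7 were called variable at an adjusted p under 0.05, against 0.0373% of 13391 genes, and 1 had an unadjusted p under 0.05, against 4.56%. That gene was Spry2 (edgeR unadjusted p = 0.0266, adjusted p = 0.987). In simulated counts with 1 library raised, edgeR's test recovered 10% of genes raised 1.5 times and 80% of genes raised 2 times. These counts had a lower dispersion than the common value of 0.00303 in the real libraries, and no trend with transcript length. The raised genes had more counts than Fgfr2, Dusp6 and Etv4, so the absence of a call does not show that the libraries were equal. The chi-square test against counting noise called 1 of the 7, again Spry2, against 12.4% of all genes. Spry2 had 22.5, 15.8 and 15.8 CPM in replicates 1, 2 and 3 (chi-square adjusted p = 0.00331). Without replicate 1 the chi-square adjusted p of Spry2 was 0.9996, so the call rests on that library.

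The size and direction of the replicate 1 difference varied among the genes. Spry2 was higher in replicate 1 by 0.51 on the log2 scale, with a main transcript of 2087 nt, and a class of 1895 genes around that length, with a median of 2123 nt, had a median log2 ratio of -0.04. Dusp6 was higher by 0.26 and Fgf4 and Etv5 by 0.08 and 0.07, Fgfr1 and Etv4 had log2 ratios of -0.002 and -0.04, and Fgfr2 had -0.63 on few counts. The part of transcript length in the Spry2 difference was not tested.

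**Figure D4:**
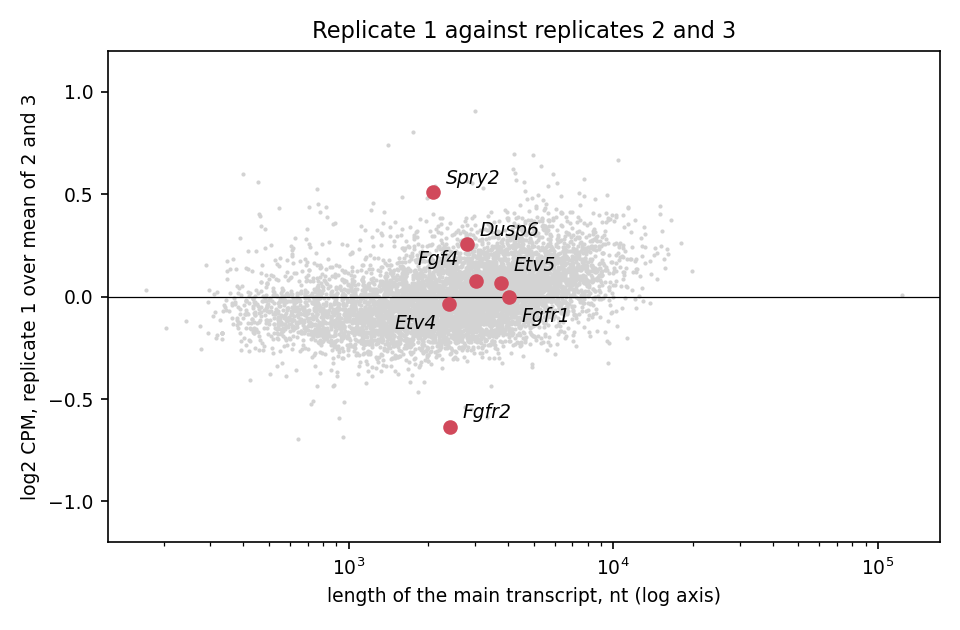
Log2 ratio of CPM in replicate 1 over the mean of replicates 2 and 3 against the length of the main transcript in nucleotides (log axis), for 7582 genes of at least 20 CPM (grey) and for the 7 tested members (red; Fgfr2, Dusp6, Etv4 and, in replicates 2 and 3, Spry2 have fewer than 20 CPM). Spry2 stands highest of the 7 members, at 0.51, and Fgfr1, Etv4, Fgf4 and Etv5 lie within 0.08 of 0.

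The kallisto-style and RSEM-style tables were compared within each library, on the scale of log2(TPM + 1), which understates differences of low genes. The test took genes that reached 1 TPM in each library in at least 1 of its tables, and 7 of the 10 did. Of these, 0 were called by limma at an adjusted p under 0.05 and a difference of at least 1, against 13.1% of 14790 genes. Without a minimum difference, 4 of the 7 were lower in the kallisto-style tables (61.3% of all genes) and 1 was higher (16.3%). The 4 were Fgf4, Fgfr1, Fgfr2 and Etv5, with log2 differences of -0.31, -0.23, -0.46 and -0.21 and limma adjusted p of 0.00616, 0.012, 0.005 and 0.0167. The median difference over all genes was -0.25 on this scale, and of the 4 genes Fgfr2, at -0.46, lay farthest below it. At a pseudocount of 0.1 the log2 difference of Fgfr2 was -0.68, a value not to be set against that median, which was taken at a pseudocount of 1. Spry2 was higher, with 18.1, 13.5 and 13.5 TPM in the kallisto-style tables, against 16.38, 10.92 and 11.04 TPM in the RSEM-style tables, a log2 difference of 0.23 (limma adjusted p = 0.0167). The calls of Fgf4 and Fgfr2 held without each replicate in turn. Those of Spry2, Fgfr1 and Etv5 were lost without replicate 2 (limma adjusted p of 0.0904, 0.0707 and 0.0917) and without replicate 3 (limma adjusted p of 0.0914, 0.0812 and 0.118). The counts of Spry2 were 2.23, 2.69 and 2.65 times as high in the kallisto-style tables, where the median gene was 1.68 times as high, and 7.95% of 13108 genes had a larger ratio than Spry2.

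Of 77 annotated transcripts of the 10 genes, 9 could be tested in this way and 2 were called, against 18.9% of 28903 transcripts. Both belong to Fgfr1 and were higher in the kallisto-style tables, as were 12.1% of all tested transcripts. Fgfr1-216, a retained-intron transcript, had 3.38, 3.04 and 2.67 TPM in the kallisto-style tables, against 0.11, 0.13 and 0.17 TPM in the RSEM-style tables (log2 difference 1.82, limma adjusted p = 0.00159). Fgfr1-203, the beta form named above, had 1.88, 2.62 and 1.09 TPM, against 0 in every library of the RSEM-style tables (log2 difference 1.48, limma adjusted p = 0.0095). The call of Fgfr1-203 was lost without replicate 1 (limma adjusted p = 0.0617), where its log2 difference was 1.46. Both tables describe the same libraries, so these are differences between tables and not between groups of cells.

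The RSEM-style gene tables also give a posterior mean TPM and an interval around it for each gene and library, whose level the headers do not state. Over the 10 genes and 3 libraries, 17 of 30 TPM values lay inside their own interval, 6 below it and 7 above it, or 20% below and 23.3% above. Over all expressed genes 68.5% lay inside, 3.08% below and 28.4% above. The 6 values below were those of Fgfr2 and Etv4 in all 3 libraries. Fgfr2 had posterior means of 5.68, 5.77 and 5.36 TPM, and Etv4 of 5.10, 4.99 and 5.54 TPM, both more than 1.5 times their TPM in every library. Fos also had posterior means above its TPM, at 1.16, 1.54 and 1.79 TPM. Values of Fgf4 and Etv5 lay above their intervals in all 3 libraries, with posterior means of 79.5 ± 5.42 and 85.05 ± 5.24 TPM, and so did Spry2 in replicate 1. By posterior mean 8 of the 10 genes were expressed, with Fos added, and Fgfr2 and Etv4 kept their places below Spry2, at 11.2 ± 2.74 TPM.

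**Figure D5:**
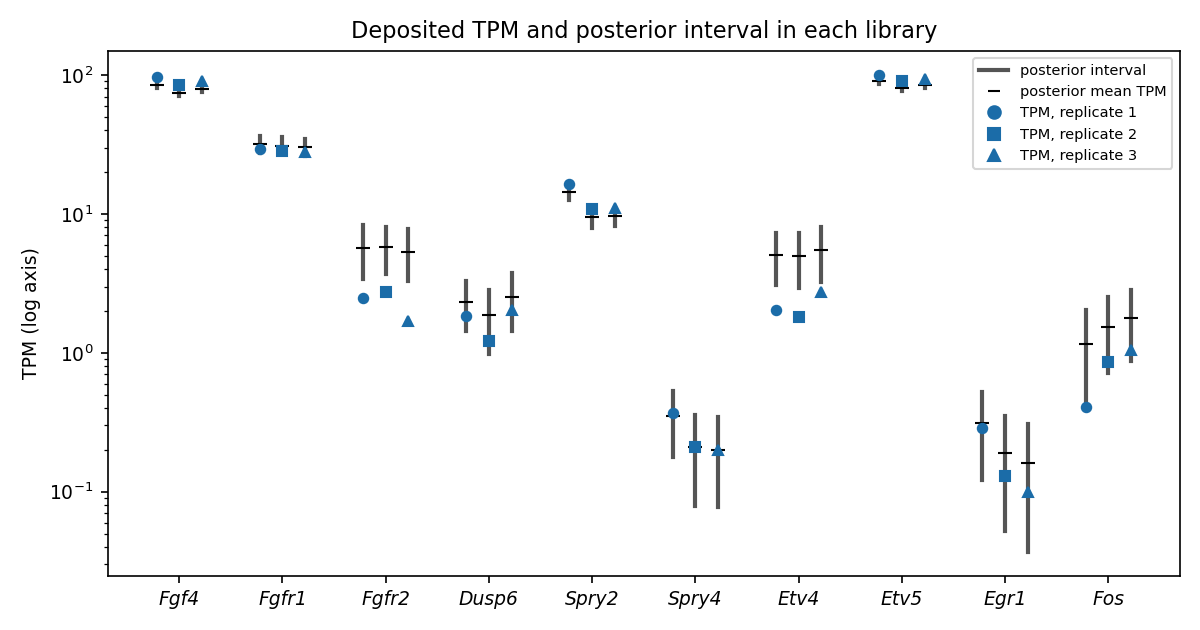
TPM on a log axis (points, 1 symbol for each replicate) with the deposited posterior mean (dash) and posterior interval (vertical bar) of the 10 genes in each library. The points of Fgfr2 and Etv4 lie below their bars in all 3 libraries and those of Fgf4 and Etv5 above them, while the bars of Fgfr1, Dusp6, Spry4, Egr1 and Fos contain their points.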

How the data were processed

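Total RNA of 3 F121-9 libraries was measured by RNA-seq. Per the file headers and accompanying notes, reads were assigned to M21, a GENCODE annotation of mm10. Which aligner and quantifiers were run, and with which strand setting, was not given in the sources used here. Estimated counts (expected counts) are deposited for each gene and each transcript without normalization. TPM values are deposited after scaling by the authors to a common sum, to which spike-ins contribute. The deposited percent column gives each transcript's percent of its gene's TPM; shares were recomputed here from TPM. Posterior means and interval bounds are deposited values.

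The 10 genes and the pathway and marker lists were chosen with earlier results of these data known. Symbols and coordinates came from M21. The tests and their library sizes left out the spike-in rows and 26248 rows with tRNA numbers. The rows with tRNA numbers held 0.00015% of counts or less in 2 libraries and 0.00016% in replicate 1. The depths given above include both kinds of row. The upper limit for a count of 0 is 3 counts, or 0.283 to 0.307 CPM at those depths. Counts were rounded and tested with edgeR 4.0.16 (R 4.3.3): filterByExpr, TMM, an intercept-only quasi-likelihood fit and each gene's dispersion against the trend; spread beyond counting noise was tested by chi-square against Poisson with 2 degrees of freedom. Quantifications were compared with limma 3.58.1 on the difference of log2(TPM + 1). P-values were adjusted over all features by Benjamini-Hochberg at 0.05 and measure the spread between these 3 libraries. Alternatives used DESeq2 1.42.0 size factors and limma-voom among others. Named genes are the 10 genes, in each list the 3 highest and the lowest, list genes called by a test, and transcripts of at least 5% of their gene or called; Etv1, Dusp9 in each library, Spry1, Dusp7, Fgf5, Fgfr3, Fgfr4, Kl and single markers were added after their values were seen. A few genes and sequences that these choices take are not reported here. Sequences were read from M21 transcripts. Other values came from Python 3.11.15, numpy 2.4.6, pandas 2.3.3 and scipy 1.17.1. Scripts were tested on simulated data.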

Additional observations from a re-analysis of the deposited data

Results flagged for a closer look

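Among rows outside the gene measurements, those with tRNA numbers were nearly empty, but the row of highest count held 12.94, 10 and 11.96 estimated counts in replicates 1, 2 and 3, a mean of 11.63, above the 3 counts that a count of 0 allows. It bears on none of the 10 genes.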

How the results depend on the processing

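No paired analysis was possible because the 3 libraries form 1 group. Of the 10 genes, 4 were expressed at a minimum of 2 or 5 TPM. The count of 7 held at a minimum of 0.5 TPM, without each replicate and in the kallisto-style tables. Their median level was 1.84 TPM in the kallisto-style tables, 2.37 TPM with TPM rescaled to gene rows and 5.41 TPM by posterior mean. edgeR's count of variable genes was 2 with scaling to spike-ins, 34 with no filter on low counts, 16 with kallisto-style counts and 7 to 14 without 1 replicate, and limma-voom called 8. The chi-square test called 2800 genes on kallisto-style counts and 27 to 1471 without 1 replicate. Genes that differed between quantifications numbered 976 at a minimum of 5 TPM, 3047 at a minimum difference of 0.5, 11478 with no minimum and 2021 to 2148 without 1 replicate; transcripts numbered 2753, 9387, 17807 and 4983 to 5431. With kallisto-style counts the chi-square test also called Fgf4 (adjusted p = 0.0233). Fgfr1-201 was lower in the kallisto-style tables by a log2 difference of -0.76 (limma adjusted p = 0.0128), a call at a minimum difference of 0.5. The cause of these shifts was not tested. The alternatives for exon shares were chosen after seeing the data. With 28 to 47 rounded counts for each library in Fgfr2 and Etv4, depth limits what can be said of their isoforms.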
